A study of Arabidopsis thaliana with 48 samples.

Results

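The mitochondrion of a plant cell carries a genome of its own, which encodes some subunits of the respiratory complexes and of the ATP synthase, parts of the mitochondrial ribosome and proteins that mature cytochrome c. All other parts of the complexes are encoded in the nucleus, translated in the cytosol and imported. A complex with a subunit from the mitochondrial genome is therefore assembled from the products of both genomes. In plants a poly(A) tail marks a mitochondrial transcript mainly for decay. The reference Arabidopsis accession also carries a large copy of mitochondrial DNA inserted in nuclear chromosome 2.

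The transcripts described are the identifiers of the mitochondrial genome (prefix ATMG) with a mean of at least 10 normalised reads over the 48 libraries. There were 42 of them, called members below, among 152 ATMG identifiers and 32833 genes in the table. The 3 identifiers just outside the limit were ATMG00180, ATMG00580 and ATMG00720, with means of 8.86, 8.96 and 9.35. Just inside it were ATMG00520, ATMG01350 and ATMG00710, with means of 11.8, 14.5 and 14.8. Every member was above 0 in all 48 libraries, and 27 of the 42 had a mean of at least 50. The limit was taken over all libraries, those under high light included, so it can favour identifiers that rise there. The lowest mean of a member over the 24 systemic libraries was 6.86.

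The libraries came from leaves of 4-week-old Arabidopsis thaliana plants grown on soil, either the wild type Col-0 (written Col) or myb30, which the series text calls a knockout of MYB30, a transcription factor of the R2R3-MYB family. One leaf (local) was put under high light for 0, 2, 8 or 30 min, and an untreated leaf (systemic) was collected at the same times. The 2 genotypes, 2 leaves and 4 times gave 16 groups of 3 libraries, each library made from a pool of 20 plants. Nothing states that the libraries of a group came from separate experiments, so p-values measure the spread between these pools. The groups were taken from the titles, because 6 libraries titled 30 min carry a time label of 0 min.

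The libraries held 70514715 to 89402096 reads in genes, of which 13542 to 44142 fell in members. The leaf genes RBCS1A, CAB1, RCA and CA1 ranged from 432570 to 1796136 normalised reads, while the root gene IRT1 was at 0 in every library, SCR, a root marker that leaves also express, was at 2555 to 6749, and the seed genes CRA1, SESA3 and OLEO1 were at 13.0 or below. MYB30 ranged from 244 to 1039 normalised reads in Col and from 176 to 818 in myb30. That level does not check the genotype, since the place of the mutation was not given in the sources used here. The 8 genes that part the genotypes were picked on the libraries outside the systemic 0 min groups. Of these genes, 100% were nearer the other genotype in the libraries labelled Col systemic 0 min replicate 3 and myb30 systemic 0 min replicate 3. The share was 0.0% in replicates 1 and 2 of both groups. In the libraries outside these groups it was at most 12.5%, which follows from how the genes were picked. In 3 of the 12 libraries at 0 min (Col local replicate 3, Col systemic replicate 1 and myb30 systemic replicate 3), WRKY40, a gene that responds early to stress, was at 496 to 3317 normalised reads, against 33.6 to 60.9 in the other 9. The first pair enters the systemic 0 min groups: with it exchanged, the members called in Col systemic leaves went from 1 to 0 at 8 min and from 5 to 3 at 30 min. Without the 3 libraries high in WRKY40, the members called in Col local leaves went from 4, 34 and 42 to 3, 31 and 42 at 2, 8 and 30 min, and those in Col systemic leaves at 30 min from 5 to 6.

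Names could be given to few members. The annotation used does not pair ATMG identifiers with gene names, but its notes on chromosome 2 genes name the ATMG identifier that some of them match best, and that was so for 5 of the 42 members (11.9%). ATMG01090 was noted as ATP synthase 9, ATMG01320 as NADH dehydrogenase 2B, a subunit of complex I, and ATMG00560 as an OB-fold-like nucleic acid-binding protein that is a structural constituent of the ribosome. ATMG01220 was noted as an unknown protein, and ATMG01330 is named in the annotation of a pseudogene. Another identifier, ATMG01080, was noted as mitochondrial F0-ATPase subunit 9. It had a mean of 0.20 normalised reads and was not a member. Whether ATMG01090 stands for that subunit was not tested. The other 37 members are given by identifier.

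Members differed widely in level. ATMG00020 and ATMG01390 had means of 9458 and 7696 normalised reads, followed by ATMG00030 at 724, ATMG01360 at 551, ATMG00090 at 376 and ATMG00690 at 359, and the median member was at 68.5. The first pair held 71.2% to 81.3% of the members' values in a library. These levels were not divided by gene length, so they do not order the transcripts by abundance.

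Members rose in the leaf under high light, in both genotypes, and the rise was larger at each later time. In Col local leaves the sum of the 40 members other than ATMG00020 and ATMG01390 was 3299, 3883 and 3967 normalised reads at 0 min, 4415, 4881 and 5098 at 2 min, 6881, 6951 and 8993 at 8 min, and 12898, 13775 and 14378 at 30 min. No library of a later time overlapped those of an earlier time. The mean went from 3716 ± 364 to 13684 ± 744 (SD, n = 3), a 3.68-fold increase. An exact two-sided permutation test gave p = 0.1, the smallest p that 3 against 3 libraries allow. In myb30 local leaves the same sum went from 3576 ± 622 at 0 min through 4696 ± 1010 and 6622 ± 797 to 9734 ± 1622 at 30 min (SD, n = 3), which was 2.72-fold, again without overlap between 0 and 30 min (exact permutation p = 0.1). ATMG00020 and ATMG01390 together were 2.47-fold higher at 30 min in Col and 2.21-fold higher in myb30, without overlap (exact permutation p = 0.1 in each), so their share of the members' values went from 79.5% ± 0.661 to 72.3% ± 0.933 in Col and from 78.3% ± 1.75 to 74.5% ± 1.39 in myb30 (SD, n = 3). All 42 members together made up 0.0243% ± 0.00321 of the values in Col local leaves at 0 min and 0.0521% ± 0.00449 at 30 min (SD, n = 3), which was 2.15-fold. In myb30 local leaves they made up 0.0213% ± 0.00306 and 0.0440% ± 0.00573 (SD, n = 3), which was 2.07-fold. In bulk leaves a change in the number of mitochondria, in RNA per mitochondrion or in the share of transcripts captured cannot be told apart, and neither can fewer cells of a type from less RNA per cell.

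**Figure D1:**
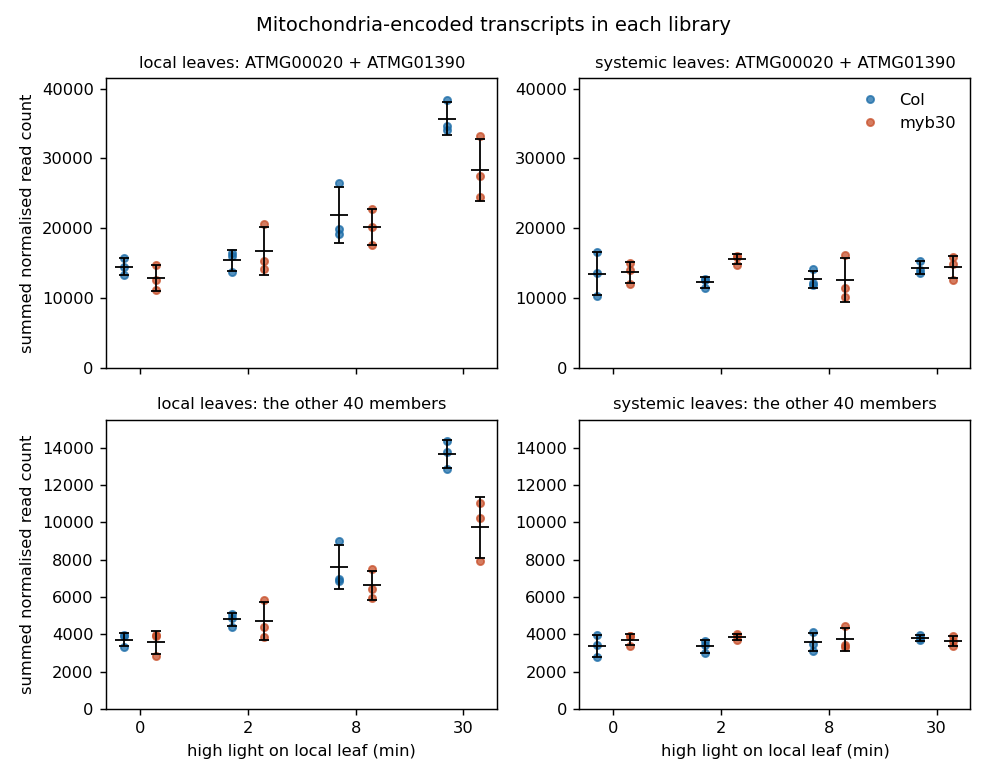
Summed normalised read counts of the 2 highest members (top) and of the other 40 (bottom) against minutes of high light on the local leaf, in local (left) and systemic (right) leaves. Points are libraries and bars are means with SD (n = 3). Local leaves climb with time in both genotypes, to 13684 in Col and 9734 in myb30 for the 40 members, while systemic leaves stay between 2764 and 4426.

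Gene by gene, 4 members were called higher in Col local leaves at 2 min, 34 at 8 min and all 42 at 30 min, and none was called lower at any of these times (limma on log2 of the normalised read count plus 1, adjusted p under 0.05 over 19556 genes). Of all genes tested, which passed the same limit of 10 over all libraries, 5.92%, 13.3% and 27.2% were called higher at those times. The median change of the members was 0.33, 0.98 and 1.90 on the log2 scale, where that of all genes tested was 0.00 at each time. The size factors hold the median of all genes near 0 by the way they are computed. The 3 libraries lay above all 3 of the 0 min libraries in 15, 38 and 42 members, as they did in 14.9%, 19.4% and 30.1% of all genes tested. In myb30 local leaves 1, 32 and 41 members were called higher and none lower, against 1.48%, 9.48% and 22.5% of all genes tested. There the median changes were 0.32, 0.80 and 1.38, and the libraries did not overlap in 8, 35 and 41 members, against 9.97%, 15.7% and 25.4% of all genes. These time comparisons share their 0 min libraries within a genotype. The member of myb30 not called at 30 min was ATMG01330, with 15.3, 22.4 and 16.9 normalised reads at 0 min and 18.4, 39.9 and 29.9 at 30 min (adjusted p = 0.187, limma).

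The group mean rose at each step from 0 to 2, 8 and 30 min in 39 of the 42 members in Col local leaves and in 31 in myb30 local leaves, against 13.5% and 10.8% of all genes tested. In systemic leaves it did so in 7 members in Col and 3 in myb30, against 12.2% and 11.1%. The 3 Col local libraries at 30 min lay above all 24 systemic libraries in 41 members (15.6% of all genes), and the 3 myb30 libraries did in 37 (12.1% of all genes).

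**Figure D2:**
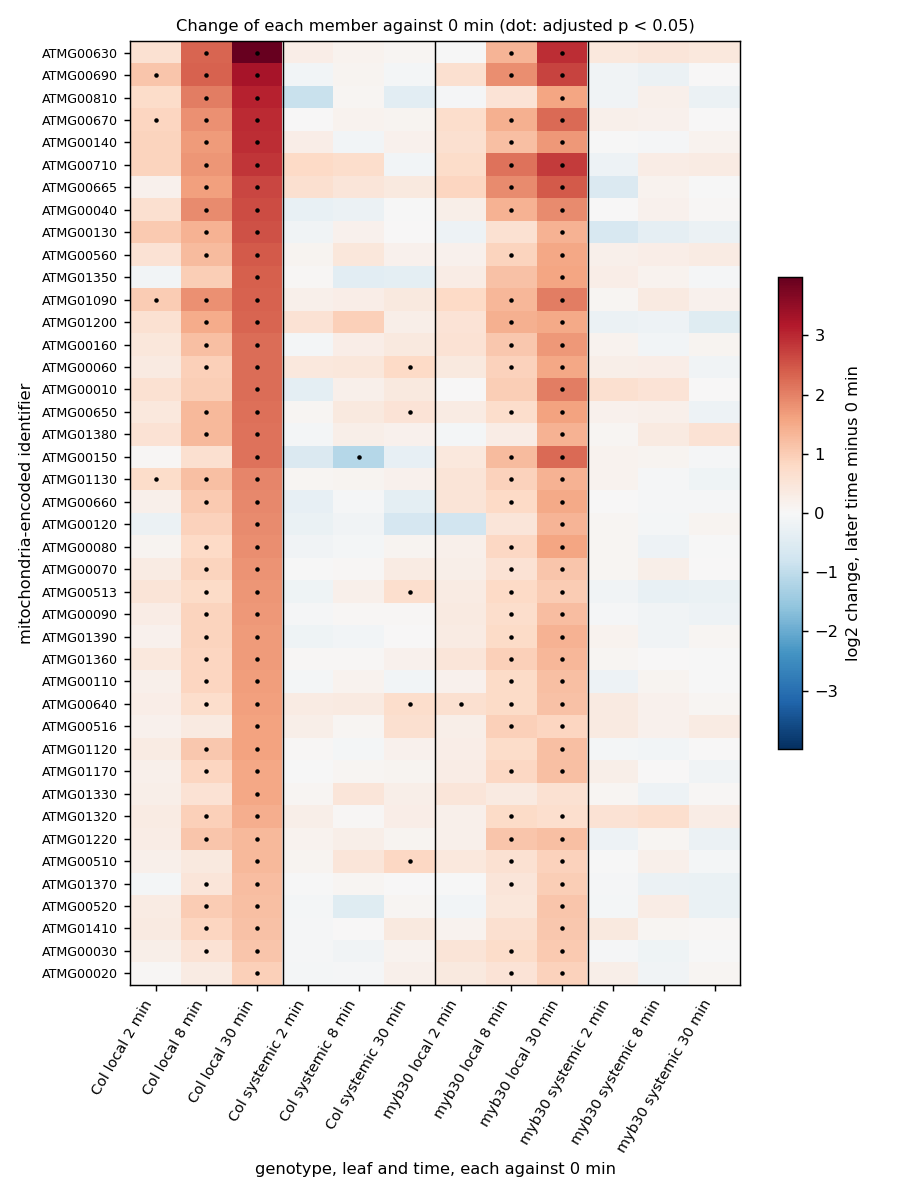
Log2 change of each of the 42 members against 0 min (colour) in both genotypes, both leaves and 3 times, ordered by the change in Col local leaves at 30 min. Dots mark adjusted p under 0.05 (limma). The local columns darken with time. The medians of the systemic columns stay between -0.02 and 0.16, with single members from -1.12 to 0.94.

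The size of the rise differed among members. ATMG00630 rose most in Col local leaves. It was at 16.1, 20.1 and 12.6 normalised reads at 0 min, 24.1, 21.2 and 29.9 at 2 min, 63.9, 71.2 and 131 at 8 min, and 299, 250 and 259 at 30 min. The groups did not overlap from one time to the next. The log2 change at 30 min was 3.99 ± 0.34 (SE), which is 15.8-fold (limma adjusted p = 2.46e-12). In myb30 local leaves it went from 19.4, 38.3 and 12.9 to 163, 196 and 155 normalised reads, a log2 change of 2.94 ± 0.34 (SE, adjusted p = 4.86e-09, limma). In all systemic libraries it stayed between 8.23 and 26.6.

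ATMG00690 followed in Col, and its change at 2 min was the largest of the members. Its normalised reads in Col local leaves were 123, 178 and 168 at 0 min, 282, 348 and 373 at 2 min, 653, 694 and 1075 at 8 min, and 1340, 1783 and 1433 at 30 min. Every later library was above every earlier one. The log2 changes were 1.10 at 2 min, 2.34 at 8 min and 3.28 at 30 min, each ± 0.25 (SE), with limma adjusted p of 0.00595, 7.76e-09 and 1.95e-13. In myb30 the values were 134, 147 and 146 at 0 min, 127, 332 and 256 at 2 min, 475, 733 and 397 at 8 min and 667, 1057 and 1104 at 30 min. At 2 min 1 myb30 library lay below the 0 min libraries, and at 8 and 30 min none did. ATMG00810 came next in Col at 30 min, going from 15.1, 11.6 and 8.75 to 98.4, 111 and 106 normalised reads (log2 change 3.08 ± 0.42 SE, limma adjusted p = 1.42e-07).

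The smallest rise at 30 min in Col local leaves was that of ATMG00020, which also had the highest mean value. Its normalised reads were 8009, 8581 and 9306 at 0 min, 8044, 9214 and 9449 at 2 min, 9962, 10101 and 12490 at 8 min and 16451, 17902 and 16020 at 30 min. The 2 min libraries overlapped those at 0 min and the 8 min libraries did not. At 30 min the log2 change was 0.96 ± 0.14 (SE, limma adjusted p = 7.03e-07). ATMG01390, the other member of high mean value, went from 5215, 5846 and 6366 to 18151, 20480 and 18009 normalised reads, a log2 change of 1.70 ± 0.18 (SE). ATMG00030 changed by 1.10 ± 0.19 and ATMG01410 by 1.16 ± 0.32 on the log2 scale (SE, limma adjusted p = 8.74e-06 and 0.00244). Across the 42 members, Spearman's rho between the mean level in systemic leaves and the Col local change at 30 min was -0.41, and it was -0.31 for myb30. These are descriptions across genes of the same libraries, and both values carry the error of low counts. A member with a mean under 10 in systemic leaves passed the limit only by being higher in local leaves. That selection alone can make rho negative.

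**Figure D3:**
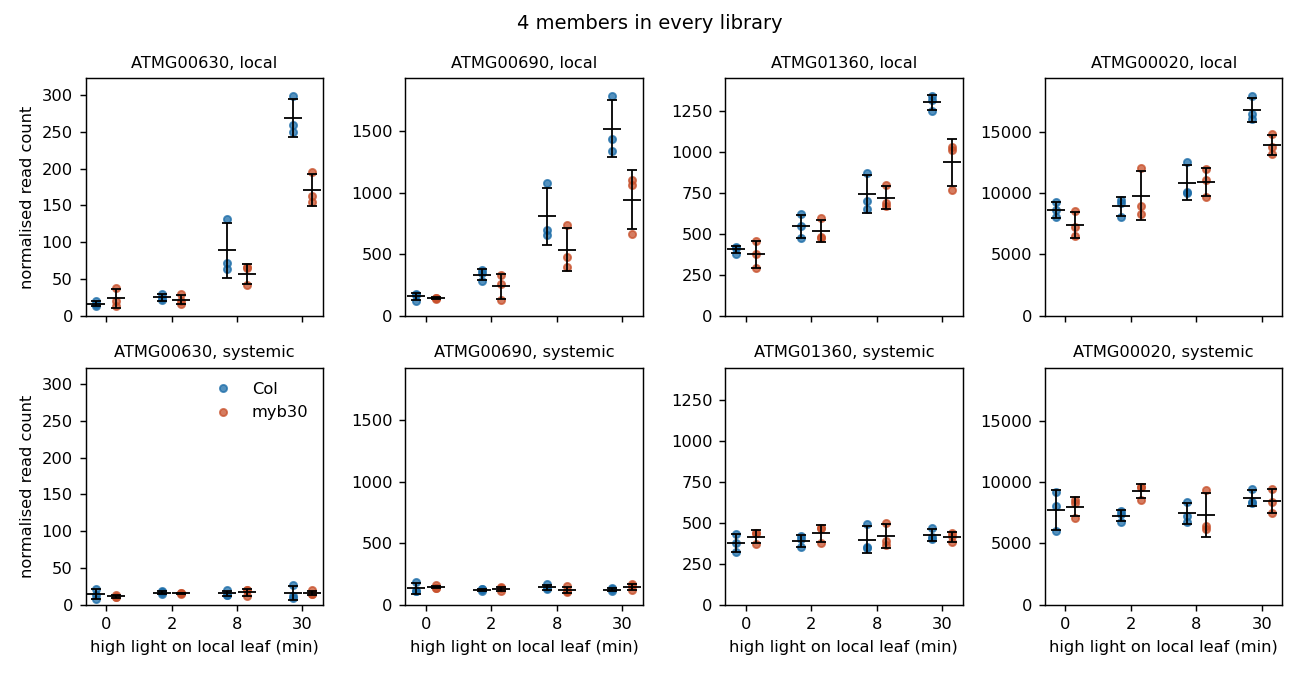
Normalised read counts of 4 members in every library against minutes of high light on the local leaf, in local (top) and systemic (bottom) leaves. Points are libraries and bars are means with SD (n = 3). ATMG00630, ATMG00690, ATMG01360 and ATMG00020 climb in local leaves, from a 15.8-fold to a 1.95-fold change in Col, and not in systemic leaves.

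Besides ATMG00690, the members called at 2 min in Col local leaves were ATMG01090, ATMG00670 and ATMG01130. ATMG01090, which carries the ATP synthase 9 note, had 17.1, 44.3 and 43.8 normalised reads at 0 min and 51.1, 82.2 and 68.0 at 2 min. The groups did not overlap (log2 change 1.01 ± 0.28 SE, limma adjusted p = 0.020). ATMG00670 changed by 0.87 ± 0.26 (SE, adjusted p = 0.030, limma). These 4 calls depended on single libraries: none passed without Col local 2 min replicate 3, and 2 passed without Col local 0 min replicate 1, without Col local 0 min replicate 2 or without Col local 2 min replicate 2. In myb30 the only member called at 2 min was ATMG00640, at 129, 155 and 157 normalised reads at 0 min and 204, 278 and 214 at 2 min (log2 change 0.65 ± 0.16 SE, limma adjusted p = 0.029). That call was lost without myb30 local 0 min replicate 1 or replicate 3, and 2 members were called without myb30 local 2 min replicate 3.

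At 8 min the largest changes in Col local leaves after ATMG00690 were those of ATMG00630 (2.33 ± 0.34) and ATMG00810 (2.05 ± 0.42), and the smallest called were those of ATMG01370 (0.48 ± 0.17), ATMG00030 (0.57 ± 0.19) and ATMG00640 (0.69 ± 0.16), all as log2 change ± SE. In myb30 they were ATMG00710 (2.17 ± 0.59), ATMG00665 (1.88 ± 0.55) and ATMG00690 (1.86 ± 0.25) at the top and ATMG01370 (0.48 ± 0.17), ATMG00020 (0.56 ± 0.14) and ATMG00070 (0.58 ± 0.19) at the bottom. Without myb30 local 0 min replicate 1 the count of members called in myb30 local leaves at 8 min went from 32 to 18. At 30 min ATMG00630, ATMG00710 and ATMG00690 rose most in myb30 local leaves, by 2.94, 2.79 and 2.69 on the log2 scale. The smallest called changes there were those of ATMG01320 (0.67 ± 0.27), ATMG00516 (0.86 ± 0.27) and ATMG00510 (0.91 ± 0.21).

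The 5 members with a note all had a higher mean at 30 min in local leaves. ATMG01090 reached 162, 186 and 164 normalised reads in Col, and ATMG00560, the ribosomal protein, went from 15.1, 37.0 and 33.1 to 141, 172 and 138, both without overlap. ATMG01320, the complex I subunit, went from 13.1, 14.8 and 22.4 to 55.7, 44.2 and 41.3 in Col and from 15.3, 20.5 and 23.8 to 31.3, 34.0 and 29.9 in myb30. Its libraries did not overlap in either genotype (limma adjusted p = 2.21e-05 and 0.042). ATMG01220 went from 89.8, 61.2 and 87.5 to 165, 212 and 211 and ATMG01330 from 11.1, 14.8 and 18.5 to 48.6, 46.6 and 37.4 in Col.

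Reads of these 5 members are uncertain, because a near-identical copy lies in the chromosome 2 insertion and how reads that map to several places were counted is not given in the sources used here. The copies of ATMG01090 and ATMG01320, AT2G07777 and AT2G07689, had group means of at most 2.04 and 0.828 normalised reads. AT2G07715, the copy of ATMG00560, went from 48.1 ± 7.69 to 166 ± 12.2 (SD, n = 3) in Col local leaves, beside 28.4 and 150 for the member. AT2G07798, the copy of ATMG01220, went from 24.7 ± 2.41 to 150 ± 10.1 (SD, n = 3), beside 79.5 and 196 for the member. Of all ATMG identifiers, 37 of the 99 without a noted copy (37.4%) and 5 of the 53 with one (9.43%) reached a mean of 10. Of the 46 copies in the table, of members or of other ATMG identifiers, 10 reached it. Among these only AT2G07715 and AT2G07798 are copies of members. All 10 were called higher in local leaves at 30 min in Col (median log2 change 2.12) and in myb30 (1.5). Of all genes tested, 27.2% and 22.5% were. Reads of the copies are uncertain for the same reason as those of the 5 members. Overlapping or antisense mitochondrial genes are uncertain as well, since the use of strand in counting is not given in the sources used here.

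Systemic leaves showed little change of members. In Col none was called at 2 min, where 11.8% of all genes tested were called in either direction, and 2 had an unadjusted p under 0.05 (0 members were called by edgeR and by DESeq2, and 1 by limma without Col systemic 2 min replicate 1). At 8 min 1 was called lower (11.4% of all genes), ATMG00150, with 13.4, 10.2 and 17.9 normalised reads at 0 min and 1.80, 12.7 and 6.63 at 8 min. Its groups overlapped, the limma adjusted p was 0.043, and no member was called by edgeR or DESeq2, nor by limma without Col systemic 0 min replicate 1, without Col systemic 0 min replicate 3 or without Col systemic 8 min replicate 3. At 30 min 5 members were called higher (17.7% of all genes), which is a smaller share than that of all genes. They were ATMG00510 (log2 change 0.81 ± 0.21 SE), ATMG00060 (0.79 ± 0.18), ATMG00640 (0.69 ± 0.16), ATMG00513 and ATMG00650.

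ATMG00060 was at 114, 92.5 and 89.6 normalised reads in Col systemic leaves at 0 min and at 198, 153 and 163 at 30 min, and ATMG00510 at 50.4, 45.3 and 39.8 and at 72.0, 91.8 and 76.3. Neither overlapped. Both rose more in local leaves, to 494, 519 and 575 and to 120, 158 and 121. The count of 5 became 3 without Col systemic 0 min replicate 2, without Col systemic 30 min replicate 3 and with the libraries in doubt exchanged. In myb30 systemic leaves no member was called at 2, 8 or 30 min, where 0.0%, 0.88% and 11.6% of all genes tested were. An unadjusted p under 0.05 was reached by 2, 1 and 1 members, and edgeR and DESeq2 called none. The smallest p at 30 min was that of ATMG01380 (log2 change 0.57 ± 0.23 SE, limma adjusted p = 0.107). The sum of the 40 members in systemic leaves went from 3373 ± 587 to 3818 ± 154 in Col and from 3718 ± 302 to 3627 ± 276 in myb30 between 0 and 30 min (SD, n = 3), with overlap in both (exact permutation p = 0.3 and 0.8).

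Set against each other, local and systemic leaves parted at the same times. At 0 min no member was called in Col or in myb30, as no gene was (0.0%), and 0 and 2 members had an unadjusted p under 0.05 (edgeR and DESeq2 called none). In Col 1 member was called higher in local leaves at 2 min (0.0716% of all genes), 31 at 8 min (5.57%) and 41 at 30 min (25.0%). In myb30 none was called at 2 min, where 0.0409% of all genes were, 17 at 8 min (2.31%) and 40 at 30 min (20.6%). At 2 min in myb30 3 members had an unadjusted p under 0.05, and edgeR and DESeq2 called none. The member called at 2 min in Col was ATMG00690 (log2 difference 1.46 ± 0.25 SE, limma adjusted p = 0.00212). A second member was called there without Col systemic 2 min replicate 1. The count of 17 in myb30 at 8 min became 9 without myb30 local 8 min replicate 2, 10 without myb30 systemic 8 min replicate 2 and 8 without myb30 systemic 8 min replicate 3. At 30 min the largest log2 differences in Col were those of ATMG00630 (4.12 ± 0.34), ATMG00690 (3.60 ± 0.25) and ATMG00710 (3.34 ± 0.59).

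The difference between the time responses of the leaves was tested directly. In Col it passed for no member at 2 min (0.0409% of all genes in either direction), 11 at 8 min (2.64% higher) and 39 at 30 min (18.4%), always with the larger rise in local leaves. In myb30 it passed for none at 2 min (0.0%), 3 at 8 min (1.09%) and 34 at 30 min (11.4%). At 2 min 8 and 1 members had an unadjusted p under 0.05. The 3 members of Col not called at 30 min were ATMG00510, ATMG01410 and ATMG00520, and the 3 of myb30 called at 8 min were ATMG00690, ATMG00160 and ATMG01360.

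Between genotypes the clearest difference was in local leaves at 30 min, where members had lower values in myb30. At 30 min in local leaves all 42 estimates were lower in myb30, with a median log2 difference of -0.48 (the lowest was -0.86), and the 3 myb30 libraries lay below the 3 Col libraries in 26 members, against 9.69% of all genes tested. Only ATMG00640 was called (1.16% of all genes were called lower), with 534, 483 and 564 normalised reads in Col and 340, 377 and 284 in myb30 (log2 difference -0.66 ± 0.16 SE, limma adjusted p = 0.023). That call was lost without any 1 of Col local 30 min replicate 1 or 3 or myb30 local 30 min replicate 1 or 3, and 2 members were called without myb30 local 30 min replicate 2. An unadjusted p under 0.05 was reached by 16 members. The sum of the 40 members was 0.711 times that of Col, without overlap (exact permutation p = 0.1). As a share of all values, the 42 members in myb30 were at 0.844 times Col, also without overlap (exact permutation p = 0.1). This ratio includes ATMG00020 and ATMG01390, which the sum of 40 leaves out. The share of the 40 was 0.0113% ± 0.00178 in myb30 and 0.0144% ± 0.00106 in Col (SD, n = 3), without overlap. The chloroplast-encoded genes, summed, were at 0.718 times Col in the same comparison, without overlap. The part of the scaling or of the chloroplast genes in the members' difference was not tested.

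At the other times and in systemic leaves limma called no member between the genotypes. The shares of all genes called were 0.0102%, 0.373% and 0.0153% in local leaves at 0, 2 and 8 min and 0.0%, 0.0767%, 0.0102% and 0.726% in systemic leaves at 0, 2, 8 and 30 min. An unadjusted p under 0.05 was reached by 3, 1 and 3 members in local and 1, 4, 1 and 5 in systemic leaves, and edgeR and DESeq2 called none in any of these 7 comparisons. The sum of the 40 members was 1.15 times that of Col in myb30 systemic leaves at 2 min, without overlap (exact permutation p = 0.1), and the groups overlapped in the other 6. The smallest adjusted p among them was that of ATMG00060 in systemic leaves at 30 min (log2 difference -0.57 ± 0.18 SE, limma adjusted p = 0.166).

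Whether the time response itself differed between genotypes was also tested. No member was called in local leaves at 2, 8 or 30 min (0.0%, 0.0% and 0.276% of all genes) or in systemic leaves (0.0%, 0.0% and 0.143%), by limma, edgeR or DESeq2. An unadjusted p under 0.05 was reached by 1, 3 and 13 members in local and 0, 1 and 5 in systemic leaves. In local leaves at 30 min the rise was smaller in myb30 in 41 of the 42 members, with a median difference of -0.50 on the log2 scale, and at 8 min in 29. On the share of all values, where ATMG00020 and ATMG01390 weigh most, the ratio of 30 to 0 min for all 42 members was 2.15 in Col and 2.07 in myb30. Without these 2, the share went from 0.00497% ± 0.000682 to 0.0144% ± 0.00106 in Col (SD, n = 3). In myb30 it went from 0.00463% ± 0.000804 to 0.0113% ± 0.00178 (SD, n = 3). The members come from the same libraries and moved together, so the count of 41 is not 42 separate observations. The smallest p at 30 min was that of ATMG00060 (-0.70 ± 0.26 SE, limma adjusted p = 0.356). For ATMG00690 the rise was 3.28 in Col and 2.69 in myb30, each ± 0.25 (SE).

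**Figure D4:**
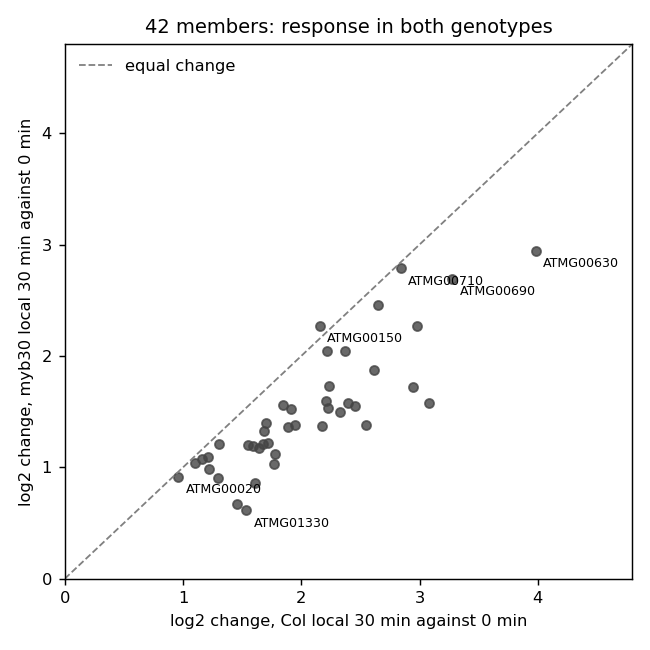
Log2 change from 0 to 30 min in local leaves, Col (x axis) against myb30 (y axis), 1 point for each of the 42 members; the dashed line marks equal change. Of the points, 41 lie below the line, and the order of the members is similar in both genotypes (Spearman's rho 0.88).

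The order of the members by size of rise was much the same in both genotypes, which share no library. Across the 42 members, Pearson's r between the Col and myb30 changes was 0.84 (rho 0.88) at 30 min and 0.62 at 8 min. Over all 48 libraries 82.4% of the members' variance on the log2 scale lay along 1 component and 2.34% along the next. Over the 16 group means, r between pairs of members was 0.62 to 0.99, with a median of 0.93. These are descriptions across genes that share libraries and size factors. Outside the members, of 19514 genes ranked, those most like the members' mean course over the 16 group means were AT2G05365, an unclassified RNA (r = 0.99), AT1G44414, a zinc-ribbon domain protein (0.99), and AT2G07698 (0.99), the chromosome 2 copy of a mitochondrial ATP synthase F1 alpha subunit gene. In Col local leaves the means at 0 and 30 min were 17.4 and 163 normalised reads for AT2G05365, 20.0 and 1317 for AT1G44414 and 81.5 and 352 for AT2G07698. The likeness is in the shape of the course and not in the size of the rise. ATMG01190, the identifier noted for AT2G07698, had a mean of 0.18 over the 48 libraries, against 132 for the copy. Whether reads of the mitochondrial gene were counted in the copy was not tested.

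The chloroplast carries the other organelle genome of the leaf. Of its 86 genes tested, 52 were called higher and none lower in Col local leaves at 30 min (limma), with a median log2 change of 0.60 (range -0.22 to 1.42), which lies below the smallest member change of 0.96. In myb30 29 were called higher and 2 lower, with a median of 0.34. Of all genes tested, 27.2% in Col and 22.5% in myb30 were called higher there. At 8 min 8 chloroplast genes were called higher and 1 lower in Col, beside 34 members. Of all genes tested 13.3% were called higher at that time, a larger share than 8 of the 86. In Col systemic leaves at 30 min 29 chloroplast genes were called higher (median 0.32), beside 5 members (median 0.16, also on the log2 scale), and in myb30 systemic leaves none of either. Among all genes tested, 17.7% were called higher in Col systemic leaves and 11.6% in either direction in myb30 systemic leaves. The difference between the 2 organelles was not tested.

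Nuclear genes for parts of mitochondrial complexes were counted in the same comparison. Of 42 nuclear genes for mitochondrial complexes and gene expression, HSP60 included, 28 were called higher and 4 lower in Col local leaves at 30 min (median log2 change 0.25), and 15 higher and 3 lower in myb30 (0.13). The shares of all genes called higher were 27.2% and 22.5%. With libraries scaled to the same total of nuclear-encoded reads those medians turned to -0.09 and -0.03, with 6 higher and 17 lower in Col, so their direction depends on the scaling. That scaling shifted the median of all genes by -0.33 in Col local and -0.16 in myb30 local leaves at 30 min and split all called genes into 2275 higher and 11319 lower in Col. Under it all 42 members were called higher in Col (median 1.57) and 40 in myb30 (1.22), and 29 chloroplast genes were called higher and 4 lower in Col (median 0.27). At 8 min 4 of the 42 nuclear genes were called higher and 1 lower in Col local leaves. That is a smaller share than the 13.3% of all genes called higher there.

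By complex, 11 of 12 nuclear genes of complex I, which oxidises NADH, were called higher in Col local leaves at 30 min, with a median log2 change of 0.32. Of all genes tested, 27.2% were called higher in that comparison. CI51, the complex I gene with the highest mean value, changed by 0.32 ± 0.06 (SE) and GAMMA CA1, a carbonic anhydrase-like subunit of plant complex I, by 0.79 ± 0.08. Of complex II 3 of 5 were called, of complex III and cytochrome c 5 of 7, of complex IV 3 of 6 and of the ATP synthase 5 of 5, none of them lower. With nuclear-total scaling the medians of complexes I, III and IV and of the ATP synthase turned to -0.02, -0.07, -0.18 and -0.09, and that of complex II was 0.05. The largest among these was that of CYTC-2, a cytochrome c, at 1.98 ± 0.11 in Col and 1.79 ± 0.11 in myb30. The last list held 6 genes for mitochondrial transcription, RNA turnover and translation and HSP60, a mitochondrial chaperonin that folds proteins. In Col, HSP60 rose (3.29 ± 0.18), and of the other 6 genes 4 were called lower and none higher. MGP3 (AT1G68990), a phage-type organelle RNA polymerase, changed by -0.24 ± 0.08 (limma adjusted p = 0.011). AT5G14580, annotated as a polyribonucleotide nucleotidyltransferase, an enzyme that trims and degrades RNA, changed by -0.02 ± 0.18 (adjusted p = 0.942). AHG2, a ribonuclease that acts on the poly(A) tails of mitochondrial RNA, changed by -0.23 ± 0.09 in Col and -0.25 ± 0.09 in myb30 (adjusted p = 0.034 and 0.027, limma). In Col, all of the 42 nuclear genes but CYTC-2, SDH3-1, a membrane anchor of complex II, and HSP60 changed by less than the member with the smallest change, and the difference between the lists was not tested.

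**Figure D5:**
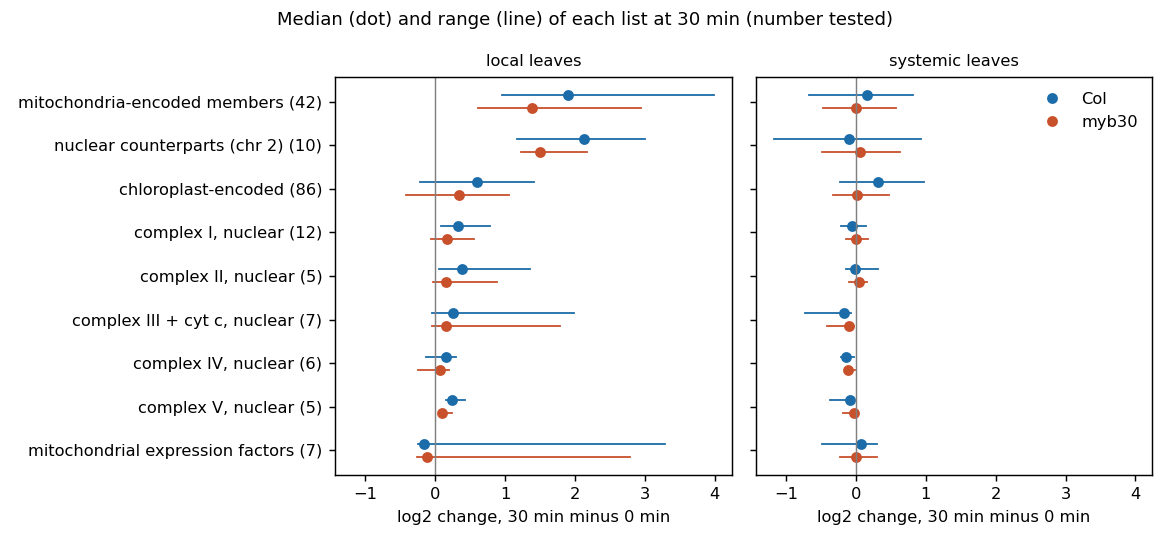
Median (dot) and range (line) of the log2 change from 0 to 30 min in local (left) and systemic (right) leaves, with the number tested in brackets. Shown are the members, the nuclear copies noted for any ATMG identifier (most of them not copies of members), the chloroplast-encoded genes and 6 lists of nuclear genes. In local leaves the members (1.90 in Col, 1.38 in myb30) and the copies (2.12 and 1.5) stand at the right, and in systemic leaves the chloroplast median in Col reaches 0.32. Under nuclear-total scaling the medians of most nuclear lists turn below 0.

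The 28 ATMG identifiers with a mean between 1 and 10 were not members and were not tested. Summed, they went from 101 ± 16 at 0 min to 116 ± 8.60, 191 ± 31.9 and 361 ± 56.6 normalised reads at 2, 8 and 30 min in Col local leaves (SD, n = 3). In myb30 local leaves the sum went from 94.9 ± 15.6 to 247 ± 30.9 at 30 min. In systemic leaves its group means lay between 87.8 and 107. Another 51 ATMG identifiers were at 0 in every library.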

How the data were processed

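RNA of leaves was sequenced in 48 libraries in 16 groups of 3. The labels give total RNA and do not say whether poly(A) RNA was selected, which could change how mitochondrial transcripts are captured. Each deposited value is a signal, namely the reads of a gene after the authors scaled each library by its own size factor (0.776 to 1.17). According to the submitters' processing notes, TAIR10 was the build, and the tools included STAR 2.4.0.1, DESeq2 1.20.0, cutadapt 1.18 and FastQC 0.11.7. The counting tool is not given in the sources used here. After multiplication by that factor, 100% of 1084756 values above 0 were whole within 1e-06, and these reads were used for edgeR and DESeq2. Averaged over genes of the whole table, counting error was small beside library spread (chi-square per gene 15.3 to 68.3 over 48 pairs within groups). That average was not taken over the members, and it does not hold for those with low counts, where counting error weighs more.

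Genes with a mean of at least 10 (19556 of 32833; 5123 were at 0 throughout) were fitted with limma 3.58.1 (R 4.3.3) with a trend, on log2 of the value plus 1, with 16 group means and all libraries. P-values were adjusted by Benjamini-Hochberg over all tested genes within each contrast, at 0.05, and all SE are from this fit. The code was tested on simulated data. The alternatives tried were DESeq2 1.42.0, TMM with the quasi-likelihood test of edgeR 4.0.16, pseudocounts of 8 and 0.5, no filter, nuclear-total scaling, the compared groups alone, a replicate block, exchanged or left-out libraries and a member limit of 50. Sums were compared by exact two-sided permutation tests (scipy 1.17.1).

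Members and lists were chosen with earlier results of these data known. Ordering by role was not possible without names. Named members are the 3 highest and 3 lowest called changes without overlap of libraries, or, with none, those with the smallest p; ATMG00150, ATMG01360, ATMG01330 and the members with notes were named after their values were seen. For nuclear lists the highest and lowest called and the gene with the highest mean value served, with CYTC-2, MGP3 and AT5G14580 added later. In 10 of 28 comparisons every same-number correlation of deviations over all tested genes was above 0.1. It reached 0.59 between local and systemic leaves. Over the members alone it ran from -0.22 to 0.38 in these 10. Libraries of unlike number were not correlated beside them, so pairing by number is not established. The main fit used no pairing.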

Additional observations from a re-analysis of the deposited data

Results flagged for a closer look

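The time response of members differed between the lit and the unlit leaf by a test of the difference itself (limma, adjusted p under 0.05). In Col this held for 11 of 42 members at 8 min and 39 at 30 min, and in myb30 for 3 at 8 min and 34 at 30 min. All these members rose more in the local leaf, with median differences of 0.91, 1.75, 0.85 and 1.43 on the log2 scale over the 42 members in that order. The largest in Col at 30 min was that of ATMG00630, 3.91 ± 0.48 (SE).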

How the results depend on the processing

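Of 300 counts under 10 alternatives, 17 moved by more than 1.5 times. With the compared groups alone, the members called went from 4 to 2 in Col local leaves at 2 min, 5 to 3 in Col systemic leaves at 30 min, 1 to 0 and 32 to 20 in myb30 local leaves at 2 and 8 min, 1 to 0 between genotypes in local leaves at 30 min and 17 to 5 between leaves of myb30 at 8 min. The single call in Col systemic leaves at 8 min became 0 with a pseudocount of 8, no filter, nuclear-total scaling, the groups alone, exchanged libraries, edgeR and DESeq2. Exchanged libraries gave 3 in Col systemic leaves at 30 min. DESeq2 gave 2 in myb30 local leaves at 2 min and 3 between genotypes in local leaves at 30 min. A mean of at least 50 left 27 members. The cause was not tested. With a replicate block, the comparison of myb30 local leaves at 2 min went from 1 to 2 members called, and the block moved no other count by over 1.5 times. Of 532 values of named members under alternatives, 443 kept their side of the threshold, 89 lost the call and 0 reversed.

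With libraries or whole replicate numbers left out, the members called ranged over 0 to 5, 22 to 31 and 41 to 42 in Col local leaves at 2, 8 and 30 min, 0 to 1, 0 to 2 and 2 to 5 in Col systemic leaves, and 0 to 2, 10 to 31 and 36 to 40 in myb30 local leaves. Between genotypes in local leaves at 30 min the range was 0 to 2. Between leaves it was 0 to 2, 9 to 30 and 40 to 41 in Col at 2, 8 and 30 min and 5 to 22 and 34 to 41 in myb30 at 8 and 30 min. The sum of calls over the 6 tests of leaf by time (87) ranged from 55 to 94. The lowest counts at 8 min came without replicate number 3 in Col (22 and 9), without number 1 in myb30 local leaves (10) and without number 2 or number 3 between leaves of myb30 (5), and the sum of 55 came without number 3. All other counts stayed at 0.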
